A study of Drosophila melanogaster with 27 samples.

Results

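The trypsin family described here comprised 7 genes of Drosophila melanogaster, alphaTry, betaTry, epsilonTry, zetaTry, etaTry, thetaTry and iotaTry. Members were taken by gene symbol in the probe annotation, and each was read by 1 probe set of its own: 1638196_at for alphaTry, 1630320_at for betaTry, 1637492_at for epsilonTry, 1635815_at for zetaTry, 1639322_at for etaTry, 1623165_at for thetaTry and 1632540_at for iotaTry. They were 7 of the 11982 genes that the annotation named by a single symbol, and 7 of 18769 probe sets once controls were left out. All 7 passed the filter on low values, a log2 value above 4 on at least 3 arrays. In the RefSeq table of the Release 6 assembly the members stood on chromosome arm 2R in the order zetaTry, etaTry, thetaTry, alphaTry, epsilonTry, betaTry and iotaTry. From zetaTry to iotaTry the table listed 12 genes, so that 5 others lay between members, among them gammaTry and deltaTry. Those close relatives of alphaTry and betaTry were not used here. Whether RNA of such a relative added to the signal of a member's probe set was not tested.

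Trypsins are secreted serine proteases that cut proteins after lysine and arginine. In insects they are made as inactive precursors by cells of the midgut, released into the gut lumen and activated there to digest dietary protein, side by side with chymotrypsin-like proteases such as those of the Jonah family. Their mRNAs are textbook gut transcripts, whereas the material measured here was labelled as head.

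The study collected heads of adult flies kept in 12 h of light and 12 h of dark. RNA of the head protein extract (INPUT) and RNA precipitated from it with an antibody to AGO1 (IP), the Argonaute protein that carries microRNAs in flies, were hybridised to Affymetrix arrays, 1 array per sample. Wild-type flies gave 11 INPUT and 12 IP arrays over 6 times, Zeitgeber time (ZT) 3, 7, 11, 15, 19 and 23, where ZT0 is lights on. Each fraction had 2 arrays at each time, except INPUT at ZT3, which had 1. Flies named Tim-Dcr gave 4 arrays: 1 INPUT and 1 IP at ZT3, and the same at ZT15. The sources used here give neither the strain, the sex and the age in days of either group, nor what alleles the name Tim-Dcr stands for. Per the series' description, wild-type replicates were biological. Tim-Dcr had no replicate at a time, so genotype and anything else that set those 4 arrays apart cannot be told apart.

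Values are the deposited log2 expression values, on which a difference of 1 is a 2-fold change. Array medians over the probe sets kept for the Tim-Dcr tests were 6.79 to 6.89 in wild-type INPUT, 5.50 to 5.63 in wild-type IP, 6.58 to 6.69 in Tim-Dcr INPUT and 5.21 to 5.22 in Tim-Dcr IP. The signals of different probe sets depend on their probes and were not ranked against each other as amounts of mRNA. The labelled tissue was checked on photoreceptor markers. The summed level of Arr2, trp and inaD was 14.57 to 14.89 (log2) in wild-type INPUT and 14.67 to 14.80 in Tim-Dcr INPUT. On the same wild-type INPUT arrays, 14 markers of the male reproductive tract summed to 14.89 to 15.58 and 6 midgut markers to 9.49 to 10.70. The check thus does not show that other tissue was absent. These are bulk extracts, in which fewer cells of a type and less RNA per cell cannot be told apart.

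In wild-type head INPUT, alphaTry and betaTry gave signals far above the array median on every array. alphaTry read 11.76 on the lowest array, 12.11 at the median and 12.55 on the highest, a mean of 12.10 ± 0.22 (SD, n = 11). betaTry read 11.11, 11.42 and 12.01 in the same order, a mean of 11.47 ± 0.29 (SD, n = 11). Over all 11 arrays, which span the day, the highest value exceeded the lowest 1.73-fold for alphaTry and 1.86-fold for betaTry.

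epsilonTry, the member between these genes on the chromosome arm, varied more. It read 7.46 on the lowest wild-type INPUT array, 8.04 at the median and 9.0 on the highest, a mean of 8.11 ± 0.54 (SD, n = 11) and a 2.89-fold span. thetaTry read 6.57, 6.72 and 7.75, a mean of 6.88 ± 0.43. zetaTry read 5.57, 5.99 and 6.75, a mean of 6.07 ± 0.41. The spans of thetaTry and zetaTry were 2.27-fold and 2.25-fold.

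iotaTry and etaTry, like zetaTry, stayed below the array median on every wild-type INPUT array. iotaTry read 5.07 on the lowest array, 5.56 at the median and 5.99 on the highest, a mean of 5.49 ± 0.30 (SD, n = 11). etaTry read 4.42, 4.74 and 5.04, a mean of 4.72 ± 0.21, close above the filter value of 4. The table holds no detection call, so a low value near the filter says little about whether the mRNA was there.

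In wild-type IP the deposited values of all 7 genes were lower, as were those of most probe sets. alphaTry averaged 10.88 ± 0.49 (SD, n = 12), betaTry 10.20 ± 0.55, epsilonTry 5.83 ± 0.63 and thetaTry 5.52 ± 0.47. zetaTry averaged 5.22 ± 0.52, iotaTry 4.0 ± 0.39 and etaTry 3.23 ± 0.31, so that the last of these read below the filter value on every IP array but 1, at 4.0022.

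**Figure D1:**
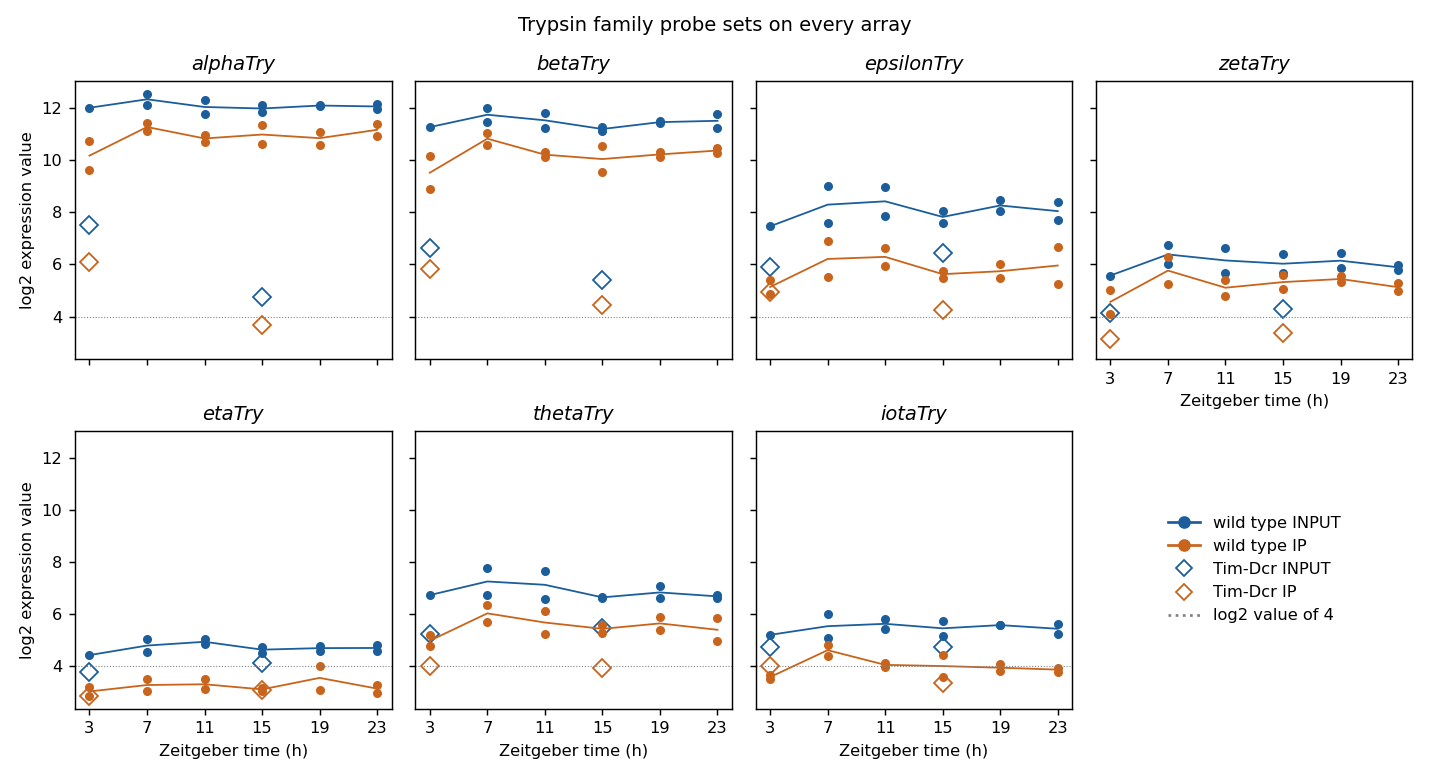
Deposited log2 expression value (vertical axis) of each trypsin probe set on all 27 arrays against Zeitgeber time in hours (horizontal axis). Filled circles are single wild-type arrays, lines join their means at each time, open diamonds are single Tim-Dcr arrays and the dotted line marks a log2 value of 4. The Tim-Dcr diamonds of alphaTry and betaTry lie 3.03 or more log2 units below the lowest wild-type array of their fraction.

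No trypsin mRNA showed a daily rhythm that passed the test. The limma F test on a 24 h harmonic called 0 of 7 members in INPUT, 0 of 7 in IP and 0 of 7 for their difference at an adjusted p of 0.05, and 0 members had an unadjusted p under 0.05 in any of the 3. Over all 15517 probe sets tested, the same test called 0.593% in INPUT, 0.928% in IP and 0% for the difference. The smallest unadjusted p of a member was 0.336 in INPUT, for thetaTry, 0.182 in IP, for iotaTry, and 0.554 for the difference. A test for any difference among the 6 times also called 0 members, with a smallest unadjusted p of 0.610 in INPUT and 0.0550 in IP.

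Fitted peak-to-trough differences of the members ran from 0.20 to 0.52 log2 units in INPUT, with a median of 0.29 against 0.19 over all probe sets tested. In IP they ran from 0.21 to 0.54, with a median of 0.43 against 0.19. Time means in INPUT were highest at ZT7 for alphaTry, betaTry, zetaTry and thetaTry, and at ZT11 for epsilonTry, etaTry and iotaTry. The range of these means was 0.35 for alphaTry and 0.96 for epsilonTry, while the largest difference between replicates of a single time was 0.56 and 1.40. For etaTry both were 0.51, and for each of the other genes the range over the day in INPUT was smaller than the largest replicate difference. In IP the range of time means was larger for 4 genes: 1.31 against a largest replicate difference of 1.29 for betaTry, 1.20 against 1.03 for zetaTry, 1.05 against 0.87 for thetaTry and 1.03 against 0.86 for iotaTry. The lowest IP time mean of all 7 genes was that of ZT3.

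Replicates of the same time differed for several trypsins together. At ZT7, replicate 2 read above replicate 1 for 7 of 7 members in INPUT and for 7 of 7 in IP. In INPUT that difference was 1.40 log2 units for epsilonTry, 1.02 for thetaTry, 0.93 for iotaTry and 0.72 for zetaTry. Over all kept probe sets, 47.4% read higher in replicate 2 at ZT7 in INPUT and 50.3% in IP. The INPUT array of ZT7 replicate 2 was the highest of the 11 wild-type INPUT arrays for all 7 genes.

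At ZT11 the direction was the other way. Replicate 2 was the lower for 6 of 7 members in INPUT and for 7 of 7 in IP, by 1.10 for both epsilonTry and thetaTry in INPUT. At ZT23, replicate 2 read higher for 7 of 7 members in both fractions. In IP at ZT3, replicate 2 was the lower for 6 of 7, with values of -1.29 for betaTry and -1.12 for alphaTry. Over the 5 times with both replicates in both fractions, the sign of the difference was the same in INPUT and IP for 31 of 35 member-time combinations, and for 61.0% of combinations over all kept probe sets.

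**Figure D2:**
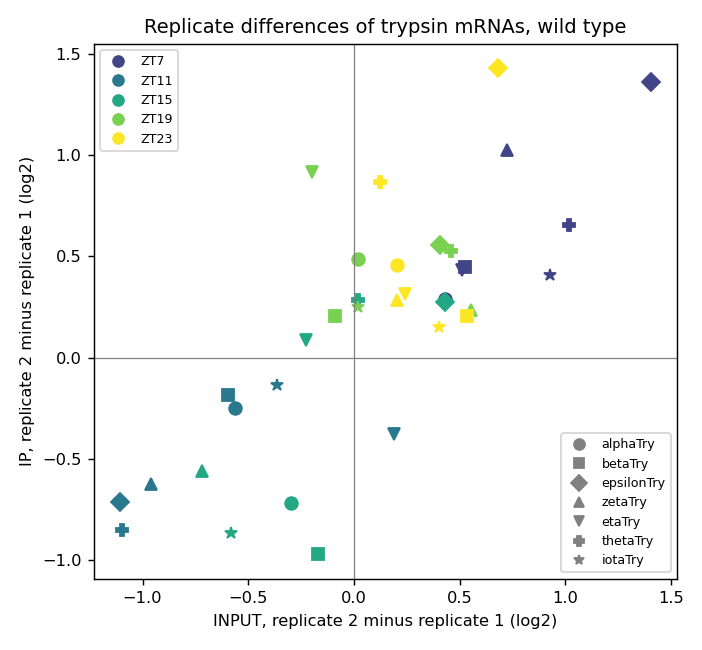
Difference of replicate 2 minus replicate 1 (log2) of each trypsin gene in wild-type INPUT (horizontal axis) and IP (vertical axis), with colour for the time and symbol for the gene. Points of ZT7 and ZT23 lie in the upper right part of the plot and 6 of the 7 points of ZT11 in the lower left.

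Across the 11 wild-type INPUT arrays, centred on their medians, all 21 pairs of members correlated above 0, with Pearson's r from 0.288 to 0.888 and a median of 0.716. Across the 12 wild-type IP arrays the 21 values ran from 0.0982 to 0.930, with a median of 0.626. These values are a description, since every pair shares the same arrays. Other gut genes moved in the same direction in some of these replicates. At ZT11 in INPUT, 14 of 15 Jonah and Ser proteases were lower in replicate 2 (median -1.17). So were 14 of 16 other digestive enzymes (median -0.71) and 6 of 6 midgut markers (median -0.88), lists that share Mal-A1 and mag. At ZT7 in INPUT, 12 of 15 Jonah and Ser proteases were higher in replicate 2 (median 0.48). Midgut markers were higher there for 4 of 6 (median 0.05), but the other digestive enzymes for 4 of 16 (median -0.18). At ZT23, Jonah and Ser proteases were higher in replicate 2 for 13 of 15 in INPUT and 11 of 15 in IP. The other digestive enzymes were higher for 5 of 16 in each fraction, and midgut markers for 4 of 6 in INPUT and 2 of 6 in IP. In IP at ZT3, 14 of 14 markers of the male reproductive tract were also lower in replicate 2 (median -1.20). So were 6 of 6 midgut markers (median -0.43), 13 of 16 other digestive enzymes and 11 of 15 Jonah and Ser proteases. Flight muscle markers were lower for 3 of 3 (median -2.68), and fat body markers were higher for 6 of 6. Over all kept probe sets, 56.4% read higher in replicate 2 there. The part of gut, reproductive or other tissue in these replicate differences was not tested.

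AGO1 IP was compared with INPUT after each array was centred on its own median, so that 0 stands for the general offset between the fractions and a positive value for more signal in IP than that offset. zetaTry was higher in IP and epsilonTry lower, that is 1 higher and 1 lower of 7, and 5 of 7 did not pass the test. Over all probe sets 59.5% were called, 26.3% higher and 33.2% lower, against 2 of 7 members. With INPUT and IP arrays of the same time and replicate number as a block, 1 member was higher and 3 were lower, beside 29.2% and 38.1% of all probe sets. Among the lower ones, etaTry and iotaTry had IP values around or below the filter value. The median over the members was -0.09 and over all probe sets -0.04.

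epsilonTry read 0.57 above the array median on the lowest wild-type INPUT array, 1.17 at the median and 2.05 on the highest. In IP it read -0.71, 0.02 and 1.21 relative to the array median. The fractions overlapped across arrays of different replicates, but IP was below INPUT at 6 of 6 times and in 11 of 11 pairs of the same time and replicate number, by -1.33 to -0.51. The limma estimate was -0.96 ± 0.22 (SE, adjusted p = 0.00109), a 1.95-fold lower signal in IP, and 4.57% of probe sets had a lower value. The adjusted p stayed between 2.65e-08 and 0.00295 over all alternatives run.

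zetaTry ran the other way. Relative to the array median it read -1.32, -0.91 and -0.21 in INPUT and -1.46, -0.39 and 0.59 in IP (lowest, median and highest array). The ranges overlapped, and the lowest IP array lay below every INPUT array. IP was higher at 6 of 6 times, by 0.19 to 0.69, and in 11 of 11 pairs, by 0.03 to 0.80. The estimate was 0.46 ± 0.16 (SE, adjusted p = 0.0226), or 1.37-fold. This call did not hold without INPUT ZT7 replicate 1 (0.40, adjusted p = 0.0501), INPUT ZT11 replicate 2 (0.38, adjusted p = 0.0520) or IP ZT7 replicate 2 (0.38, adjusted p = 0.0511). With the replicate block zetaTry was at 0.53 ± 0.06 (SE, adjusted p = 1.75e-06).

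The strongly signalling pair did not differ from the general offset beyond error. alphaTry gave 0.05 ± 0.13 (SE, adjusted p = 0.742) and was higher in IP in 8 of 11 pairs. betaTry gave 0.01 ± 0.15 (SE, adjusted p = 0.959) and was higher in 7 of 11. thetaTry gave -0.09 ± 0.16 (SE, adjusted p = 0.674) and was higher in 5 of 11.

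etaTry gave -0.20 ± 0.11 (SE, adjusted p = 0.121) and iotaTry -0.20 ± 0.12 (SE, adjusted p = 0.177). etaTry read below the filter value on 11 of 12 wild-type IP arrays and iotaTry on 7 of 12. For both, the comparison thus sets INPUT against IP values at the low end of the scale. etaTry met the filter through its INPUT arrays. The calls of either gene below therefore cannot be read as depletion from AGO1. With the 11 INPUT and IP pairs as a block both passed, at -0.23 for etaTry (adjusted p = 0.0343) and -0.19 for iotaTry (adjusted p = 0.0304). iotaTry also passed without INPUT ZT7 replicate 1 (adjusted p = 0.0392) or IP ZT15 replicate 1 (adjusted p = 0.0403), and etaTry without IP ZT19 replicate 2 (adjusted p = 0.0192). On the deposited values without centring all 7 members were lower in IP, by -2.23 for epsilonTry to -0.81 for zetaTry, with a median over all probe sets of -1.31.

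**Figure D3:**
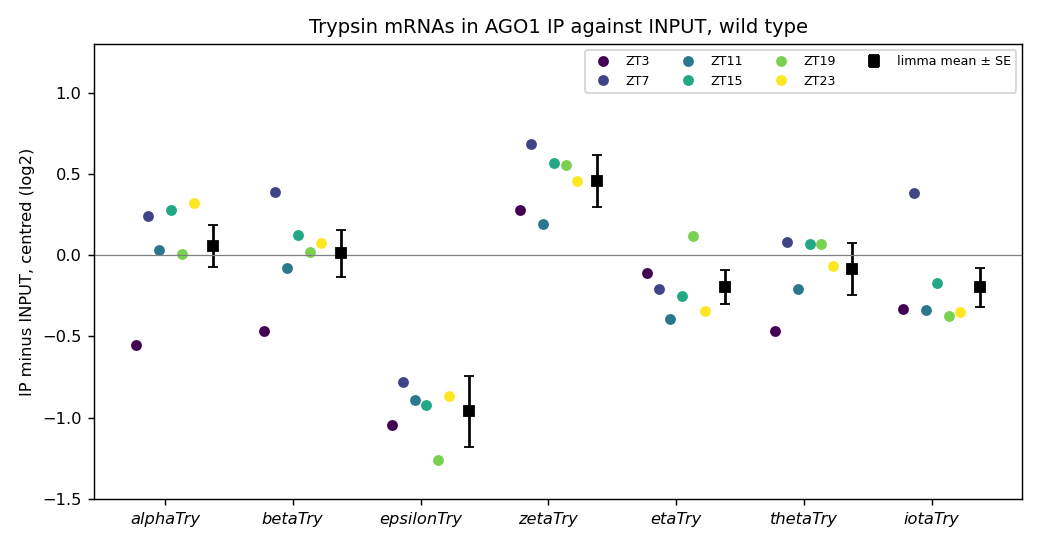
Centred IP minus INPUT (log2, vertical axis) of each trypsin gene in wild-type heads. Circles are the differences of the time means at the 6 times, black squares and bars the limma mean over times ± SE. The circles of epsilonTry all lie below 0 and those of zetaTry all above it.

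Other digestive genes were called in shares near or below those of all probe sets, 26.3% higher and 33.2% lower. Of the 4 other trypsins with a probe set, kappaTry was lower at -0.46 ± 0.12 (SE, adjusted p = 0.00294) and the others did not pass. Of 15 Jonah and Ser proteases tested, 3 were higher and 3 lower, and their median was -0.01. Among them Ser8 stood at 2.18 ± 0.17 (SE, adjusted p = 5.37e-09), Jon25Bii at 0.80 and Jon25Biii at -0.57. Of the 16 other digestive enzymes 5 were lower and 0 higher at an adjusted p of 0.05 in limma, with a median of -0.12. With the replicate block the counts higher and lower were 1 and 1 for the other trypsins, 5 and 4 for the Jonah and Ser proteases and 1 and 5 for the other enzymes.

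Signals of alphaTry and betaTry were far lower in the Tim-Dcr head extracts than in the wild-type ones. The Tim-Dcr INPUT arrays read 7.51 at ZT3 and 4.73 at ZT15 for alphaTry, where wild type read 12.01 on its single ZT3 array and 12.13 and 11.84 at ZT15. For betaTry they read 6.61 and 5.42, against 11.27 at ZT3 and 11.28 and 11.11 at ZT15. On the Tim-Dcr arrays alphaTry stood 0.81 above the array median at ZT3 and below it at ZT15, and betaTry below it at both times. No Tim-Dcr array overlapped a wild-type array for either gene.

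Over both times the limma offset in INPUT was -6.07 ± 0.61 (SE, adjusted p = 1.79e-06) for alphaTry. For betaTry it was -5.30 ± 0.43 (SE, adjusted p = 4.11e-07), a 39.4-fold lower signal. The alphaTry offset includes the Tim-Dcr array of ZT15, which read close above the filter value, so no fold is given for alphaTry. Ordered from the most negative offset, alphaTry was number 11 and betaTry number 58 of 15835 probe sets. The place of alphaTry rests in part on that ZT15 array. The spread of the fit came from the wild-type replicates and from how far the Tim-Dcr arrays of ZT3 and ZT15 departed from a single offset, since Tim-Dcr had 1 array per fraction and time. Both genes stayed lower under every alternative run, with adjusted p no higher than 0.00353 for alphaTry and 0.00217 for betaTry in INPUT.

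For alphaTry the difference from wild type in INPUT was -4.51 (22.8-fold) at ZT3 and -7.25 at ZT15. In IP it was -4.08 (16.9-fold) and -7.32. The alphaTry signal of Tim-Dcr at ZT15 lay close above the filter value of 4 in INPUT and below it in IP, so these differences are of signal, and no fold is given for that time. For betaTry it was -4.66 and -5.78 in INPUT, and -3.68 and -5.61 in IP. With 1 Tim-Dcr array at each time and fraction, the difference between the times was not tested.

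zetaTry and thetaTry were lower in both fractions. Their wild-type signals were nearer the low end of the scale, so their offsets were not ranked against those of alphaTry and betaTry. zetaTry read 4.15 and 4.27 on the Tim-Dcr INPUT arrays of ZT3 and ZT15, below the lowest wild-type INPUT value of 5.57. Its offset was -1.61 ± 0.38 (SE, adjusted p = 0.00208). Both Tim-Dcr values of zetaTry lay close above the filter value, so no fold is given for this gene. thetaTry read 5.22 and 5.48, below the lowest wild-type value of 6.57, with an offset of -1.31 ± 0.37 (SE, adjusted p = 0.00815), 2.47-fold. Neither gene overlapped wild type.

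epsilonTry read 5.89 and 6.42 on the Tim-Dcr INPUT arrays, below the lowest wild-type value of 7.46, with an offset of -1.48 ± 0.51 (SE, adjusted p = 0.0250), 2.78-fold. The calls of these 3 genes in INPUT leaned on single arrays. epsilonTry did not pass without wild-type ZT3 (-1.40, adjusted p = 0.119), wild-type ZT15 replicate 2 (-1.38, adjusted p = 0.0542) or either Tim-Dcr array (adjusted p = 0.120 and 0.167). thetaTry did not pass without wild-type ZT3 (-1.16, adjusted p = 0.0793), Tim-Dcr ZT3 (-1.16, adjusted p = 0.0795) or Tim-Dcr ZT15 (-1.503, adjusted p = 0.0684), and zetaTry without Tim-Dcr ZT15 (-1.42, adjusted p = 0.0865). Leaving out wild-type or Tim-Dcr ZT3 reduces the comparison to ZT15, and leaving out Tim-Dcr ZT15 reduces it to ZT3.

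etaTry and iotaTry had offsets of -0.57 ± 0.23 (SE, adjusted p = 0.0530) and -0.62 ± 0.30 (SE, adjusted p = 0.0988) and did not pass. etaTry read 3.76 and 4.13, and iotaTry 4.72 on both Tim-Dcr INPUT arrays. etaTry passed when the arrays of ZT3 and ZT15 were fitted alone (adjusted p = 0.0257), with a trended, robust prior (adjusted p = 0.0463) and after quantile normalization within each fraction (adjusted p = 0.0275). It also passed without any 1 of 5 wild-type arrays, with a lowest adjusted p of 0.0207. Those were both INPUT arrays of ZT7, IP ZT3 replicate 2 and both IP arrays of ZT19. iotaTry passed without wild-type IP ZT15 replicate 1 (adjusted p = 0.0486).

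Together, 5 of 7 members were lower in Tim-Dcr INPUT and 0 higher in limma, where 17% of all probe sets were lower and 32.3% higher. The members' median offset was -1.48, and that of all probe sets 0.23. For 7 of 7 members both Tim-Dcr INPUT arrays lay below all 11 wild-type INPUT arrays, as did 18.2% of all probe sets. For etaTry and iotaTry, which did not pass the test, the separation was narrow. Relative to the array median, the higher Tim-Dcr INPUT value of etaTry was -2.55 and its lowest wild-type value -2.47. For iotaTry these were -1.95 and -1.87. On arrays centred on their medians the offset was -5.87 for alphaTry and -5.09 for betaTry.

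In IP, alphaTry read 6.09 at ZT3 and 3.66 at ZT15 in Tim-Dcr, and 9.61 to 11.42 over the wild-type arrays. betaTry read 5.84 and 4.43, and 8.88 to 11.05 in wild type. The IP offsets were -5.70 ± 0.57 (SE, adjusted p = 2.94e-06) for alphaTry and -4.64 ± 0.41 (SE, adjusted p = 1.01e-06) for betaTry. Both genes thus read lower in both fractions, with no overlap.

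In Tim-Dcr IP, zetaTry and thetaTry read below the filter value on both arrays. zetaTry read 3.12 and 3.37, with an offset of -1.70 ± 0.35 (SE, adjusted p = 0.00107), and thetaTry 3.99 and 3.93, with -1.24 ± 0.35 (SE, adjusted p = 0.00871). Without the Tim-Dcr IP array of ZT15 neither passed, at -1.44 (adjusted p = 0.0543) and -0.98 (adjusted p = 0.175). The remaining genes did not pass: epsilonTry had -0.79 ± 0.48 (SE, adjusted p = 0.188), iotaTry -0.12 ± 0.28 and etaTry -0.10 ± 0.22. The last of these read 2.85 and 3.07, inside its wild-type range of 2.84 to 4.0022 and below the filter value.

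In all, 4 of 7 members were lower and 0 higher in IP, with 17% of all probe sets lower and 27% higher, and the members' median was -1.24 against 0.17. For 4 of 7, alphaTry, betaTry, zetaTry and thetaTry, both Tim-Dcr IP arrays lay below all 12 wild-type IP arrays, as did 17.3% of probe sets. Of these genes, zetaTry and thetaTry read below the filter value on both Tim-Dcr IP arrays, and alphaTry on that of ZT15. For them, both counts set wild-type signal against values at the low end of the scale. The INPUT and IP offsets were also compared with each other. Of the members 0 of 7 passed in limma, and 0 had an unadjusted p under 0.05, with 2.73% of all probe sets called. The differences of the offsets ran from -0.08 ± 0.51 for zetaTry to 0.68 ± 0.70 (SE) for epsilonTry. That of alphaTry was 0.37 ± 0.83 (SE), so the precision leaves room for shifts larger than these estimates.

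**Figure D4:**
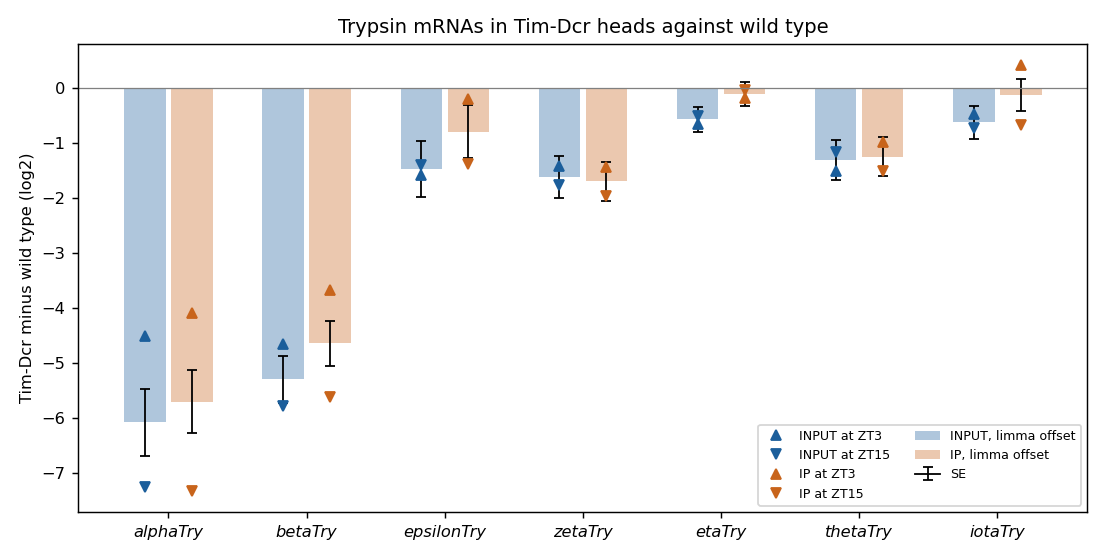
Tim-Dcr minus wild type (log2, vertical axis) of each trypsin gene. Bars from 0 show the limma offset over both times in INPUT (blue) and IP (orange) with its SE, upward triangles the difference at ZT3 and downward triangles that at ZT15. ZT15 lies below ZT3 for alphaTry, betaTry, zetaTry and iotaTry in both fractions. Bar lengths of different genes are not comparable, because zetaTry, etaTry, thetaTry and iotaTry read below 4 on both Tim-Dcr IP arrays.

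The fall was shared by other digestive genes. Of the other trypsins tested in INPUT, 3 of 4 were lower, lambdaTry at -3.21 ± 0.42 (SE, adjusted p = 1.25e-05), kappaTry at -1.83 and CG17571 at -1.58, while Try29F was higher at 0.81 ± 0.19 (SE, adjusted p = 0.00176). Of the Jonah and Ser proteases, 12 of 15 were lower and 0 higher, with a median of -1.61. Jon65Aiv was at -5.57 ± 0.66 (SE, adjusted p = 5.89e-06), Jon65Aiii at -4.67, Jon99Ci at -3.29 and Jon25Biii at -2.81. Of the 16 other digestive enzymes 8 were lower and 0 higher, with a median of -0.94, led by the maltases Mal-A1 at -3.13 and Mal-A6 at -2.02.

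In IP, 3 of 4 other trypsins, 12 of 15 Jonah and Ser proteases and 5 of 16 other enzymes were lower. lambdaTry, at -3.25 ± 0.39 (SE, adjusted p = 1.33e-05), and Jon65Aiii, at -4.71, were close to their INPUT offsets. These counts stand beside the same 17% of all probe sets, and the lists were chosen with earlier results of these data known.

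Markers of other tissues moved with these genes. Of 6 midgut markers, 4 were lower in Tim-Dcr INPUT, mex1 at -3.31 ± 0.44 (SE, adjusted p = 1.36e-05), Mal-A1, LManVI at -2.77 and LManV at -1.11. Mal-A1 and mag are counted both here and among the other digestive enzymes. Their summed level was 9.49 to 10.70 (log2) in wild-type INPUT and 7.54 to 7.76 in Tim-Dcr INPUT, and 0 of the 6 were below 4 on both Tim-Dcr INPUT arrays. Markers of the male reproductive tract were lower for 14 of 14, with a median of -4.85, among them SP, the sex peptide of the accessory gland, at -6.52 ± 0.46 (SE, adjusted p = 1.17e-07). Their summed level was 14.89 to 15.58 in wild-type INPUT and 8.53 to 12.45 in Tim-Dcr INPUT, where Acp26Aa was below 4 on both arrays.

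In INPUT the median difference of the male-tract markers from wild type was -2.97 at ZT3 and -6.00 at ZT15. Flight muscle markers had -0.76 and -2.83, and midgut markers -1.64 and -1.998. With 1 Tim-Dcr INPUT array at each time, the difference between the times was not tested. Flight muscle markers had 1 of 3 lower (TpnC4, -2.31), and their summed level ran from 8.87 to 12.18 in wild-type INPUT and from 7.03 to 9.54 in Tim-Dcr INPUT. No marker of 4 other tissues was called lower in INPUT: photoreceptor markers had 0 of 3 called, neuronal markers 1 of 3 higher, glial markers 3 of 3 higher with a median of 0.95 and fat body markers 4 of 6 higher with a median of 0.50. The part of gut, reproductive or other body tissue in the lower trypsin signal was not tested.

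**Figure D5:**
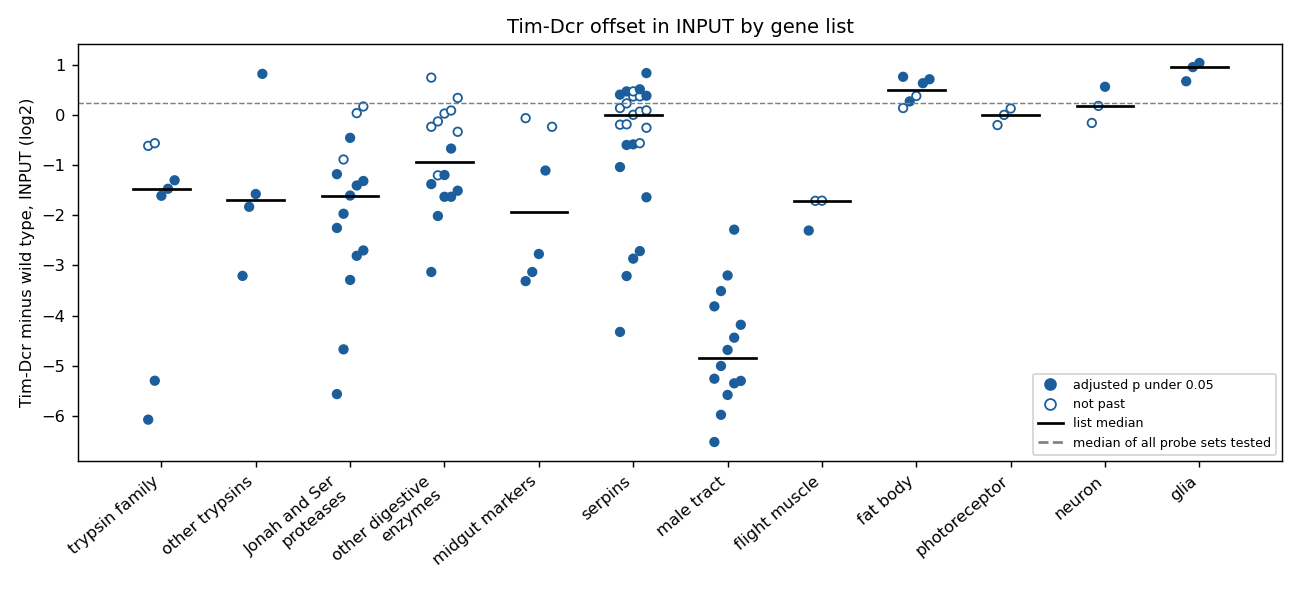
Limma offset of Tim-Dcr minus wild type in INPUT (log2, vertical axis) for the trypsin family and for lists of other digestive genes, serpins and tissue markers. Each circle is 1 gene, filled where the adjusted p was under 0.05, solid bars are list medians and the dashed line is the median of all probe sets tested, at 0.23. alphaTry lies below the lowest gene of every other list except the male-tract markers. betaTry lies in the range of the male-tract markers and in that of the Jonah and Ser proteases. The remaining members lie in the ranges of several lists, among them the other trypsins, other digestive enzymes, midgut markers and serpins.

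Genes with the most similar pattern over the 13 INPUT arrays, centred on their medians, were found by Pearson's r. For alphaTry they were CG18628 (0.997), SP (0.996), CG5565, Acp53C14b and CG31010, SP and Acp53C14b being products of the male accessory gland. For betaTry they were the protease gene yip7 (0.998), BG642312, the accessory gland gene Acp53Ea (0.996), the Jonah protease Jon65Aiii (0.995) and whe. Over the 11 wild-type INPUT arrays alone, r with alphaTry was 0.555 for SP and 0.783 for CG18628, and r with betaTry was 0.946 for yip7 and 0.856 for Jon65Aiii. The values over 13 arrays thus include the 2 Tim-Dcr arrays on which all these genes were low.

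For epsilonTry and thetaTry the gene with the highest r was the same, CG17633, at 0.975 and 0.980. Over wild type alone these were 0.940 and 0.955, and over the 14 IP arrays 0.880 and 0.917. epsilonTry was further followed by Tsp29Fa, the Jonah protease Jon74E, CG31515 and CG12057, and thetaTry by CG9702, CG11911, CG5096 and CG8299. zetaTry was followed by CG11112 (0.973), CG9673, CG12057, CG18404 and CG8773.

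etaTry and iotaTry had lower values, and those of etaTry were not seen in IP. The nearest genes to etaTry were p23 (0.913), zda, Hat1, CG6878 and CG5506, whose r over the IP arrays ran from -0.227 to 0.130. Those of iotaTry were the metallothionein gene MtnB (0.912), Agpat4, Ote, CG13197 and CG18190, with r over the IP arrays of 0.282 to 0.584. All these correlations are descriptions over arrays that share their extracts, each picked as the highest over all named probe sets kept.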

How the data were processed

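The authors' deposited table gives log2 expression values per probe set, made with GCRMA (submitters' processing notes). Neither the GCRMA version nor the array build is given in the sources used here. Of 18952 probe sets, 183 controls were left out; 13647 of the rest had 1 gene symbol in the platform annotation, 402 several and 4720 none, and 0 of the probe sets with several held a member. One wild-type IP sample of ZT3 has a description naming another time; its title and time entry say ZT3, which was used. No array repeated another (highest correlation 0.996). The number of arrays limits the precision.

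Tests used limma 3.58.1 (R 4.3.3; lmFit, eBayes, Benjamini-Hochberg at 0.05), fitted over all probe sets with log2 above 4 on at least 3 arrays: 15517 for the wild-type tests and 15835 with Tim-Dcr. The scripts were tested on simulated data. For enrichment, IP minus INPUT was averaged over the times on 23 wild-type arrays, each centred on its median, because the fractions have different medians and look separately normalized. For Tim-Dcr, each fraction had 1 offset from its wild-type time means, fitted on deposited values of all 27 arrays. Tables were made in Python 3.11.15 with pandas 2.3.3, and plots with matplotlib 3.10.9.

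INPUT and IP arrays of the same time and replicate number were taken as pairs: their deviations from the group means correlated at 0.417, 0.394, 0.664, 0.429 and 0.381 at ZT7, ZT11, ZT15, ZT19 and ZT23, against a median of 0.0753 between times, where the highest value, 0.405, exceeded those of ZT11 and ZT23. Every member is described; of each other list up to 4 genes with the largest absolute value in a contrast were named, and for each member the 5 genes of highest r. Members and lists were chosen with earlier results of these data known. Alternatives covered centring, quantile normalization, filters, the replicate block, the prior, single times and single arrays left out.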

Additional observations from a re-analysis of the deposited data

How the results depend on the processing

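alphaTry and betaTry were lower in Tim-Dcr in both fractions, and epsilonTry lower in IP than INPUT, under every alternative run, and 0 members passed a rhythm test under any of them. Centring decided the IP comparison: on deposited values 0 members were higher and 7 lower, with alphaTry at -1.21, betaTry at -1.25 and zetaTry at -0.81. With the replicate block 3 members were lower, and it changed the calls of etaTry and iotaTry and of no other member. With a filter at log2 above 6, which etaTry and iotaTry did not pass, betaTry was at -0.017. On centred arrays the Tim-Dcr offsets in IP were 0.22 for etaTry and 0.20 for iotaTry, and the difference of the offsets of zetaTry was 0.035; quantile normalization within each fraction, chosen after seeing the data, put that of thetaTry at -0.077. The last 5 values did not pass the test.

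Leaving out 1 array at a time, Tim-Dcr arrays added after seeing the data, gave 0 to 1 members higher and 1 to 2 lower in IP against INPUT, with alphaTry from -0.034 to 0.17, betaTry from -0.092 to 0.11 and thetaTry from -0.17 to 0.00066. It gave 2 to 6 members lower in Tim-Dcr INPUT and 2 to 4 in Tim-Dcr IP, where iotaTry ran from -0.67 to 0.42. The difference of both offsets ran from -1.25 to 1.99 for alphaTry, -0.31 to 1.62 for betaTry, -0.34 to 0.17 for zetaTry, -0.20 to 0.32 for thetaTry and -0.047 to 1.04 for iotaTry. Each omission leaves fewer arrays; other causes were not tested.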

Other observations

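Serpins, which inhibit serine proteases such as trypsins, moved in both directions in Tim-Dcr heads. Of 25 serpin genes tested in INPUT, 8 were lower and 5 higher, with a median of 0.00, beside 17% of all probe sets lower and 32.3% higher. Spn77Bb was at -4.33 ± 0.56 (SE, adjusted p = 1.09e-05), Spn38F at -3.21 ± 0.33 (adjusted p = 2.12e-06), Spn28F at -2.87 and Spn77Bc at -2.72. On the Tim-Dcr INPUT arrays Spn38F read 3.69 and 4.17 and Spn28F 4.26 and 4.39, around or close above the filter value. In IP, 9 serpins were lower and 6 higher, with Spn77Bb at -3.57 and Spn38F at -2.85. Spn38F read below the filter value on both Tim-Dcr IP arrays. A link between these serpins and the trypsins was not tested. Between the fractions in wild type, 10 of 25 serpins were lower in IP and 2 higher (12 and 4 with the replicate block), beside 33.2% of all probe sets lower and 26.3% higher. Their median was -0.15, and Spn42Da was lowest at -0.89 ± 0.07 (SE, adjusted p = 9.39e-09).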
